A study of Mus musculus with 10 samples.

Results

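The genes described here are 43 genes that mark endothelial cells or act in blood vessel formation, selected by name from a list of endothelial and vascular genes and measured in the first pharyngeal arch (PA1) of mouse embryos at E10.5. All 43 were found among the 22114 protein-coding genes of the deposited count table, and all 43 passed the filter on low counts that left 14561 genes for testing. The arches came from 5 wild-type (*Grhl2*+/+) and 5 *Grhl2*-/- male embryos of the C57BL/6 strain, and each arch was sequenced as 1 stranded, ribosomal RNA-depleted library. The *Grhl2*-null allele was present in every cell of the *Grhl2*-/- embryos, so vessels, epithelium and mesenchyme of these arches all carried it. The whole arch was sequenced, so the comparison asks whether vascular genes differed together, as they would if the endothelial share of the arch differed, or whether single genes differed from the others.

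Endothelial cells line all blood vessels and, at this stage, form the arch arteries, the head veins and the capillary plexus within the arch. They are held together by endothelial cadherin and tight junction proteins, respond to vascular endothelial growth factor (VEGF) through tyrosine kinase receptors, and mature under angiopoietin-TIE, apelin, adrenomedullin and Notch signalling. Their identity is set by ETS, SOXF and GATA transcription factors, several of which also act in blood cells that arise from related precursors.

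Between 22188454 and 28801378 reads per arch were counted on protein-coding genes, at which depth 3 reads correspond to between 0.104 and 0.136 CPM (counts scaled to library size, after TMM normalization). This floor covers counting error only. The targeted gene, *Grhl2*, had 794 to 1163 reads per wild-type arch and 81 to 178 reads per *Grhl2*-/- arch (log2 fold change -3.02, 95% CI -3.40 to -2.64, FDR 2.67e-06 with limma-voom). The arches WT1-566 and WT1-568 stood apart in transcripts of sensory neurons, with a summed level of 42.3 and 38.1 CPM over 8 marker genes against 449.6 to 716 CPM in the other wild-type arches and 244 to 892 CPM in the *Grhl2*-/- arches. The main counts below are therefore also given without these arches. Nothing in the labels says that arches came from separate litters, so p-values measure the spread between these 10 embryos.

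In *Grhl2*-/- PA1, 37 of the 43 endothelial genes had a positive log2 fold change, against 7673 of all 14561 genes (52.7%). The median of the 43 log2 fold changes was 0.16, beside 0.01 over all genes tested. *Vwf*, the gene of the clotting protein von Willebrand factor, was the 1 member that rose at FDR below 0.01 (limma-voom, Benjamini-Hochberg adjustment over all genes tested), where the background of genes higher in *Grhl2*-/- PA1 was 0.879%. No member was lower at that threshold (background 1.09%), none was lower at an unadjusted p under 0.05, and edgeR and DESeq2 also called 0 lower. At FDR below 0.05, 9 members were higher (*Calcrl*, *Clec14a*, *Kdr*, *Lmo2*, *Mmrn2*, *Pecam1*, *Ptprb*, *Sox17* and *Vwf*) and 0 were lower, with backgrounds of 3.84% and 3.87%. The 95% CI of the log2 fold change lay above 0 in 21 members (background 14.2%), below 0 in 0 (background 14.3%) and spanned 0 in 22. All 5 *Grhl2*-/- arches were above all 5 wild-type arches for 6 members (background 4.22%), namely *Lmo2*, *Mmrn2*, *Notch4*, *Pecam1*, *Sox17* and *Vwf*, and below them for 0 members (background 4.67%). In bulk tissue, a larger number of endothelial cells and more RNA of these genes per endothelial cell cannot be told apart.

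These counts depended on single arches. The median log2 fold change of the members was 0.10 without KO1-588 and 0.25 without KO2-566. The number of members that were higher at FDR below 0.05 was 2 without WT1-568, WT8-568 or KO1-628, when the share of all genes that were higher was 1.56%, 1.79% and 1.66%. It was 3 without WT1-566, WT5-566, KO2-568 or KO3-604, with shares of 1.71%, 2.84%, 1.95% and 2.40%. It was 8 without WT3-588 (2.40%), 9 without KO1-588 (6.09%) and 16 without KO2-566 (5.79%), so the share over all genes moved with the arch left out as well. Without both WT1-566 and WT1-568, 35 members had a positive log2 fold change and the median was 0.18, but 0 members passed FDR 0.05 in that fit of 8 arches, where 0.592% of all genes were higher. Some arches of both genotypes share the number that ends their label, whose meaning the labels do not give. With this label number as a replicate block, 0 members passed FDR 0.01, where 0.412% of all genes were higher. At FDR below 0.05, 5 members were higher in the block fit, with a share of 2.6%.

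**Figure D1:**
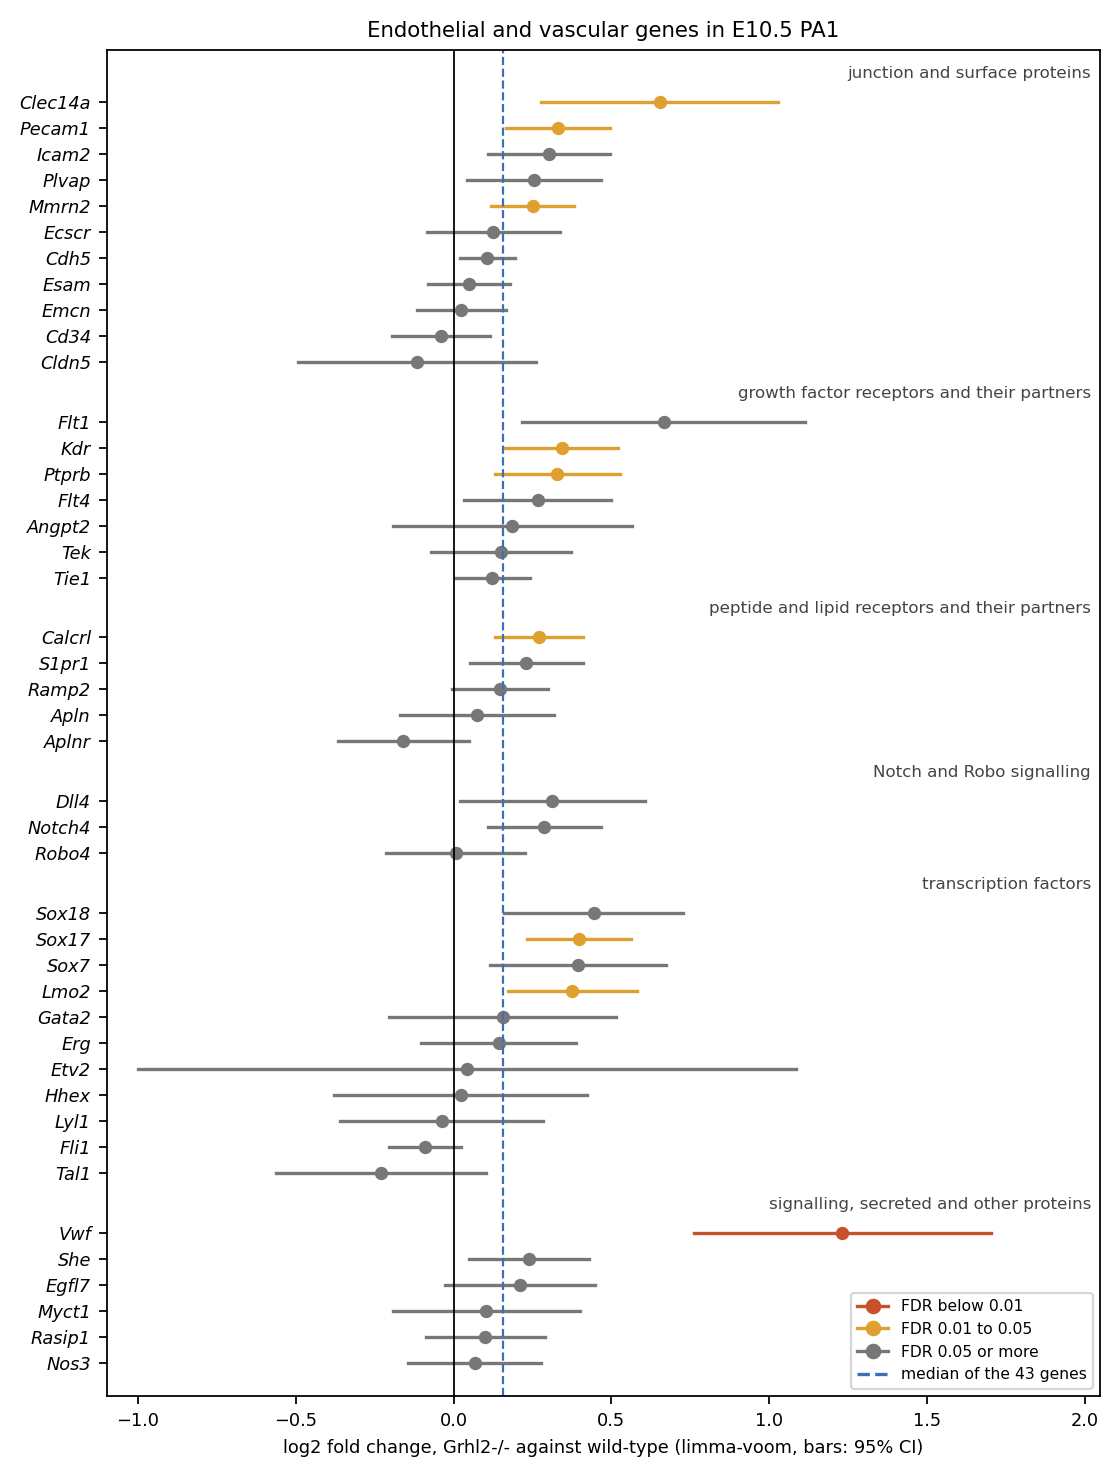
Log2 fold change of each of the 43 endothelial genes in *Grhl2*-/- against wild-type PA1 with its 95% CI (limma-voom), grouped by role, with colours for the FDR and a dashed line at the members' median of 0.16. Most points lie between 0 and 0.5, *Vwf* stands apart at 1.23, and 6 genes lie below 0.

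The members differed widely in abundance. Per kilobase of exon, *Fli1*, an ETS factor that is also expressed in neural crest-derived mesenchyme, was the most abundant in wild-type PA1 at 44.3 ± 3.34 CPM per kb (SD, n = 5). It was followed by *Cdh5* at 20.7 ± 0.956, *Aplnr* at 18.8 ± 1.25, *Plvap* at 17.6 ± 1.45 and *Kdr* at 12.6 ± 0.965 CPM per kb. *Cdh5* and *Aplnr* were within 2 SD of each other, as were *Aplnr* and *Plvap*. The median member was at 4.64 CPM per kb. *Vwf*, the gene with the largest change, was among the least abundant at 0.734 ± 0.0488 CPM per kb in wild-type and 1.80 ± 0.647 CPM per kb in *Grhl2*-/- arches. Only *Angpt2* (0.552 ± 0.0640), *Hhex* (0.403 ± 0.0802) and *Etv2* (0.215 ± 0.110 CPM per kb) were lower in wild-type PA1. At least 100 reads were counted in every arch for 39 members, whereas *Etv2*, an early inducer of the endothelial lineage, had 3 to 12 reads per arch, and its log2 fold change of 0.04 (95% CI -1.0 to 1.09) was not resolved at this depth.

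**Figure D2:**
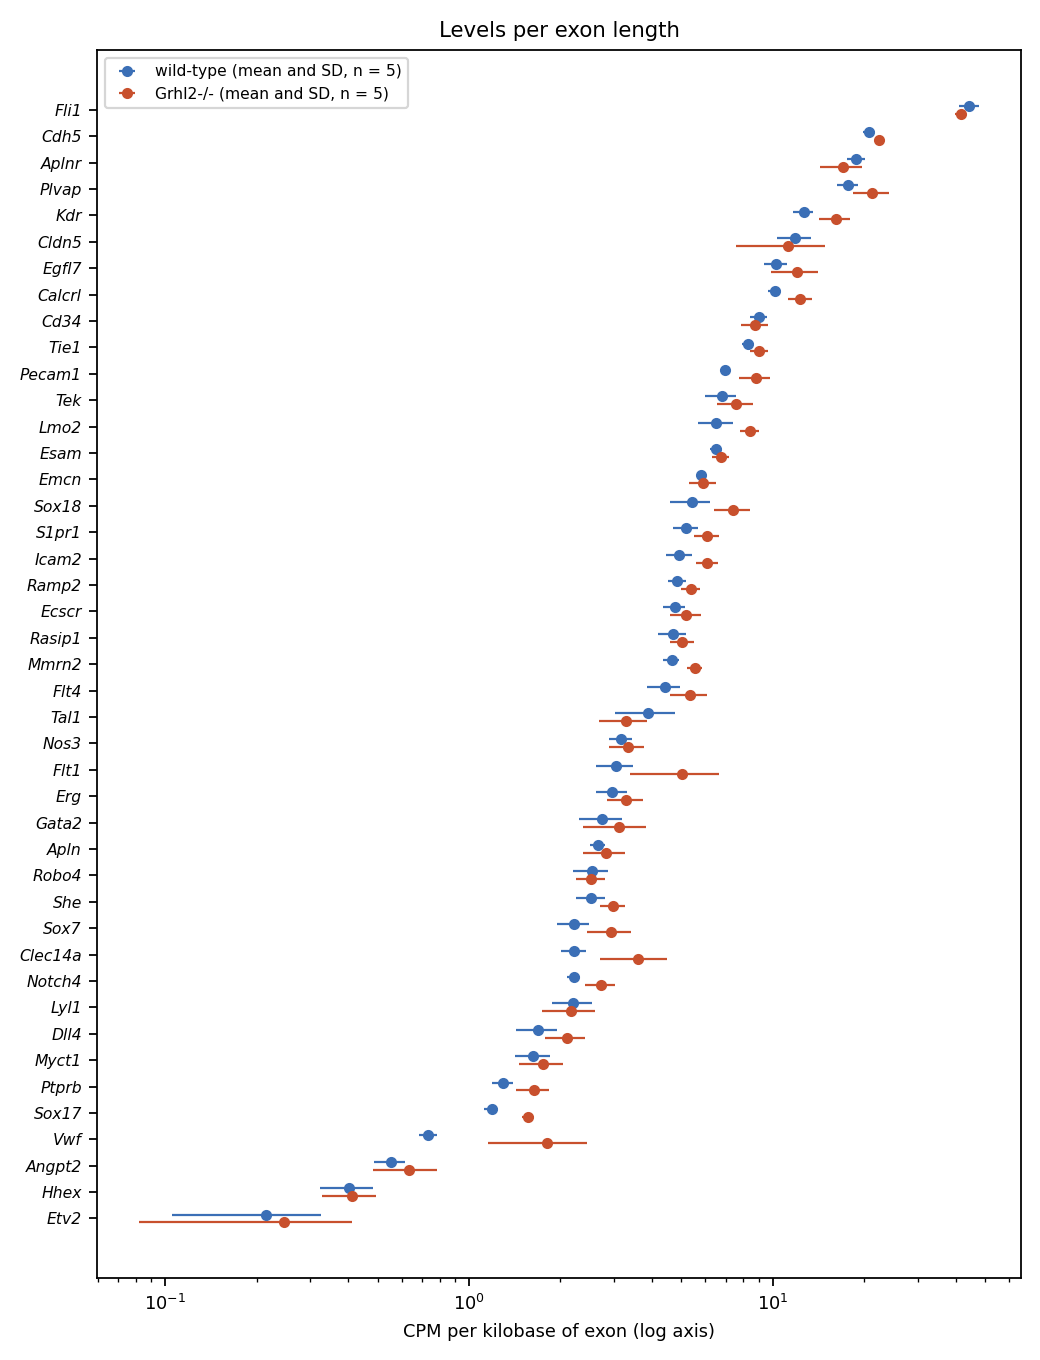
Level of each member in CPM per kilobase of exon on a log axis, as mean and SD of 5 wild-type (blue) and 5 *Grhl2*-/- (red) arches, ordered by the wild-type level. The members span from 0.215 CPM per kb for *Etv2* to 44.3 CPM per kb for *Fli1* in wild-type PA1.

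Values in single arches are given in CPM in the order WT1-566, WT1-568, WT3-588, WT5-566 and WT8-568 for wild-type and KO1-588, KO1-628, KO2-566, KO2-568 and KO3-604 for *Grhl2*-/- PA1. FDR values are from limma-voom with n = 5 per genotype, and mean levels are given with the SD.

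*Vwf* (ENSMUSG00000001930, chr6:125546774-125686679, plus strand, GRCm38) had levels of 10.6, 11.4, 12.2, 12.5 and 12.2 CPM across wild-type arches and 22.2, 28.1, 21.5, 46.9 and 26.3 CPM across *Grhl2*-/- arches. Every *Grhl2*-/- arch was above every wild-type arch, and KO2-568 was well above the other *Grhl2*-/- arches. The mean level rose from 11.8 ± 0.783 to 28.99 ± 10.4 CPM, and the fitted rise was 2.35-fold (log2 fold change 1.23, 95% CI 0.76 to 1.70, FDR 0.00700). Without KO2-568 the log2 fold change was 1.04 with an FDR of 0.000249. The FDR lay between 0.016 and 0.0229 when WT1-566, WT1-568, WT3-588, WT5-566, WT8-568, KO1-628 or KO3-604 was left out, with log2 fold changes of 1.2 to 1.26, and without both WT1-566 and WT1-568 it was 0.076 (log2 fold change 1.16). With the label number as a replicate block the FDR of *Vwf* was 0.0177 (log2 fold change 1.355). Von Willebrand factor is also made by megakaryocytes. Of 6 platelet lineage genes, 0 changed at FDR below 0.01 (0 at an unadjusted p under 0.05, 0 with edgeR or DESeq2). However, 5 of the 6 had a positive log2 fold change, with a median of 0.18 beside 0.16 for the endothelial members. Their summed level was 7.84 to 13.2 CPM in wild-type and 9.50 to 13.0 CPM in *Grhl2*-/- arches. The part of platelet precursors in the *Vwf* level was not tested.

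The other secreted and signalling members moved less. *She* encodes an SH2 adaptor protein and had a log2 fold change of 0.24 (95% CI 0.05 to 0.43, FDR 0.107). *Egfl7*, a secreted factor of the vessel matrix, had a log2 fold change of 0.21 with an FDR of 0.222. The exons of *Egfl7* overlap those of other genes on both strands. *Myct1* had a log2 fold change of 0.10, *Rasip1*, required for the vessel lumen, one of 0.10, and *Nos3*, endothelial nitric oxide synthase, one of 0.07, none of them with an FDR below 0.2.

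Among 11 junction and surface proteins, 9 had a positive log2 fold change and the median was 0.13. At FDR below 0.01, limma-voom called 0 of them, edgeR called 0 and DESeq2 called 3. At an unadjusted p under 0.05 with limma-voom, 6 were higher (background 14.2%). DESeq2 called 3.57% of all genes higher at this threshold and edgeR 0.975%, which are the backgrounds of the higher calls by these tools here and below. Among these 11 genes *Clec14a*, a C-type lectin of the endothelial surface, differed most. It was at 9.40, 9.71, 11.8, 9.60 and 10.1 CPM in wild-type and 17.4, 21.6, 10.97, 18.1 and 13.9 CPM in *Grhl2*-/- arches, where KO2-566 was below the highest wild-type arch (log2 fold change 0.65, 95% CI 0.28 to 1.03, FDR 0.0421). *Pecam1*, the adhesion molecule CD31, was at 44.4, 43.97, 43.99, 40.97 and 42.6 CPM in wild-type and 48.1, 61.4, 49.3, 61.6 and 52.8 CPM in *Grhl2*-/- arches, without overlap (log2 fold change 0.33, 95% CI 0.17 to 0.49, FDR 0.0257). *Mmrn2*, a matrix protein that binds CLEC14A, was at 18.8, 18.2, 20.2, 17.3 and 17.7 CPM in wild-type and 22.8, 22.5, 21.05, 23.1 and 20.3 CPM in *Grhl2*-/- arches, again without overlap but with a small difference (log2 fold change 0.25, 95% CI 0.12 to 0.38, FDR 0.0314).

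No other junction or surface gene passed FDR 0.05. *Cdh5*, the endothelial cadherin of adherens junctions, was at 87.4, 84.9, 88.5, 81.9 and 92.7 CPM in wild-type and 93.6, 93.6, 92.5, 97.6 and 91.1 CPM in *Grhl2*-/- arches (log2 fold change 0.11, 95% CI 0.02 to 0.19, FDR 0.113). Its groups overlapped through WT8-568, and the interval excludes a rise as large as that of *Clec14a*. *Esam*, an adhesion molecule of tight junctions, was at 18.6, 19.1, 19.6, 17.3 and 18.7 CPM in wild-type and 21.4, 19.2, 18.6, 18.8 and 18.5 CPM in *Grhl2*-/- arches (log2 fold change 0.05, 95% CI -0.08 to 0.18, FDR 0.620), and only KO1-588 was above the wild-type range. *Emcn*, a surface sialomucin of capillaries and veins, averaged 31.3 ± 0.753 CPM over wild-type and 31.9 ± 3.30 CPM over *Grhl2*-/- arches (log2 fold change 0.02, 95% CI -0.12 to 0.17, FDR 0.836). *Cd34* had a log2 fold change of -0.04 and *Cldn5*, the tight junction claudin of endothelium, one of -0.12 (95% CI -0.49 to 0.26). *Cldn5* was at 24.7, 12.98, 16.1, 12.6 and 13.1 CPM in the *Grhl2*-/- arches and 16.03, 16.6, 20.3, 14.7 and 15.96 CPM in wild-type, so that KO1-588 was the highest and 3 other *Grhl2*-/- arches the lowest of all 10. The log2 fold changes of *Icam2*, of *Plvap*, a component of endothelial diaphragms, and of *Ecscr* were 0.30, 0.26 and 0.13 (FDR 0.0566, 0.117 and 0.409).

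All 7 growth factor receptor genes and partners had a positive log2 fold change, with a median of 0.27. At FDR below 0.01, however, 0 were called (edgeR called 0 and DESeq2 called 2). At an unadjusted p under 0.05, 5 were higher (background 14.2%). *Kdr*, the main VEGF receptor of endothelium, was at 104, 116, 127, 108 and 114 CPM in wild-type and 150.0, 162, 121, 157 and 136 CPM in *Grhl2*-/- arches, with only KO2-566 inside the wild-type range (log2 fold change 0.34, 95% CI 0.16 to 0.52, FDR 0.0305). *Flt1*, a VEGF receptor that binds the ligand tightly and signals weakly, had a larger but more variable difference. It was at 36.6, 43.1, 48.03, 33.7 and 43.6 CPM in wild-type and 53.7, 90.7, 42.5, 90.2 and 61.4 CPM in *Grhl2*-/- arches (log2 fold change 0.67, 95% CI 0.22 to 1.11, FDR 0.0682), with KO1-628 and KO2-568 about level and far above the rest, and KO2-566 inside the wild-type range. *Flt4*, the VEGF-C receptor, had a log2 fold change of 0.27 (FDR 0.130).

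In the angiopoietin pathway, *Ptprb*, the phosphatase that restrains TEK, was at 16.3, 19.4, 15.8, 17.3 and 17.6 CPM in wild-type and 19.8, 21.1, 19.2, 25.9 and 23.01 CPM in *Grhl2*-/- arches, where the lowest arch was just below the highest wild-type arch (log2 fold change 0.33, 95% CI 0.13 to 0.53, FDR 0.0489). *Tie1* was at 42.5, 39.7, 42.00, 37.8 and 41.6 CPM in wild-type and 49.2, 43.8, 43.1, 41.3 and 44.2 CPM in *Grhl2*-/- arches, with overlap (log2 fold change 0.12, 95% CI 0.0029 to 0.24, FDR 0.167). The angiopoietin receptor *Tek* had a log2 fold change of 0.15 (95% CI -0.07 to 0.37) and its ligand *Angpt2* one of 0.19 (95% CI -0.19 to 0.57). The interval of *Tie1* lies below the estimate for *Kdr* and that of *Tek* includes it, and the differences themselves were not tested.

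The ligands of these receptors gave a mixed picture. Of 10 tested genes of VEGF and angiopoietin ligands and co-receptors, *Figf* (VEGF-D) fell, from 8.83 ± 1.26 to 4.49 ± 0.644 CPM (log2 fold change -0.97, 95% CI -1.25 to -0.68, FDR 0.00140), with no overlap between genotypes. *Vegfa*, the ligand of KDR and FLT1, was at 58.3, 60.6, 55.6, 51.1 and 59.99 CPM in wild-type and 73.1, 121, 55.4, 117 and 103 CPM in *Grhl2*-/- arches (log2 fold change 0.66, 95% CI 0.23 to 1.08, FDR 0.0609). KO1-628 and KO2-568 were highest for *Vegfa* as for *Flt1*, and KO2-566 was within the wild-type range for both. *Vegfb*, a ligand of FLT1, and the remaining genes of this list were not called, and 8 of the 10 had a positive log2 fold change (median 0.26).

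Among receptors for peptides and lipids, *Calcrl*, which forms the adrenomedullin receptor with RAMP2, was at 48.7, 49.6, 53.7, 48.2 and 47.8 CPM in wild-type and 57.97, 68.03, 53.03, 59.8 and 61.8 CPM in *Grhl2*-/- arches, with only KO2-566 inside the wild-type range (log2 fold change 0.27, 95% CI 0.13 to 0.41, FDR 0.0292). Its partner *Ramp2* had a log2 fold change of 0.15 (95% CI -0.0037 to 0.30) and the sphingosine 1-phosphate receptor *S1pr1* one of 0.23 (95% CI 0.05 to 0.41). *Aplnr*, the apelin receptor of venous and sprouting endothelium, was on the other side. It was at 65.4, 65.6, 76.8, 69.6 and 70.2 CPM in wild-type and 77.5, 58.03, 68.3, 53.02 and 56.95 CPM in *Grhl2*-/- arches (log2 fold change -0.16, 95% CI -0.37 to 0.05, FDR 0.285), where 3 *Grhl2*-/- arches were below the wild-type range and KO1-588 was above it. The ligand *Apln* had a log2 fold change of 0.07 (95% CI -0.17 to 0.32).

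*Notch4*, an endothelial Notch receptor, was at 19.1, 18.05, 17.4, 16.5 and 17.98 CPM in wild-type and 19.2, 23.5, 19.2, 23.2 and 24.2 CPM in *Grhl2*-/- arches, with KO1-588 and KO2-566 only just above the highest wild-type arch (log2 fold change 0.29, 95% CI 0.11 to 0.47, FDR 0.0535). The ligand *Dll4*, a marker of tip cells and arteries, had a log2 fold change of 0.31 (95% CI 0.02 to 0.61, FDR 0.152). *Robo4*, which stabilizes vessels, averaged 13.5 ± 1.78 CPM over wild-type and 13.4 ± 1.44 CPM over *Grhl2*-/- arches (log2 fold change 0.01, 95% CI -0.21 to 0.23, FDR 0.974).

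The 11 transcription factors are described by family. All 3 SOXF genes, which act redundantly in endothelial and arterial identity, had a log2 fold change between 0.39 and 0.44. *Sox17* was at 5.59, 5.18, 5.93, 5.82 and 5.82 CPM in wild-type and 7.06, 7.59, 7.13, 7.86 and 7.72 CPM in *Grhl2*-/- arches, without overlap (log2 fold change 0.40, 95% CI 0.23 to 0.56, FDR 0.0110). *Sox18* (log2 fold change 0.44, 95% CI 0.16 to 0.73, FDR 0.0577) and *Sox7* (log2 fold change 0.39, 95% CI 0.12 to 0.67, FDR 0.0771) overlapped between genotypes. *Lmo2*, a bridging factor of blood and endothelial complexes, was at 15.9, 13.8, 15.3, 11.2 and 14.4 CPM in wild-type and 19.9, 18.1, 18.9, 16.5 and 17.5 CPM in *Grhl2*-/- arches, without overlap (log2 fold change 0.38, 95% CI 0.17 to 0.58, FDR 0.0346).

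No ETS factor differed at FDR below 0.05. *Fli1* was at 173, 153, 157, 147 and 142 CPM in wild-type and 148, 142, 135, 147 and 151 CPM in *Grhl2*-/- arches (log2 fold change -0.09, 95% CI -0.21 to 0.02, FDR 0.276), and *Erg* had a log2 fold change of 0.14 (95% CI -0.10 to 0.39). Whether SOXF and ETS genes differed from each other was not tested directly. *Tal1*, *Lyl1* and *Gata2*, which act in blood and endothelial precursors, had log2 fold changes of -0.23, -0.04 and 0.16, and *Hhex* one of 0.02, each with an interval spanning 0. *Tal1* was highest in WT1-566 at 23.1 CPM, the arch with the highest summed level of primitive erythroid transcripts. Over all 11 factors, 8 had a positive log2 fold change with a median of 0.14, and 0 were called at FDR below 0.01 (edgeR called 0 and DESeq2 called 2). At an unadjusted p under 0.05, 4 were higher (background 14.2%).

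**Figure D3:**
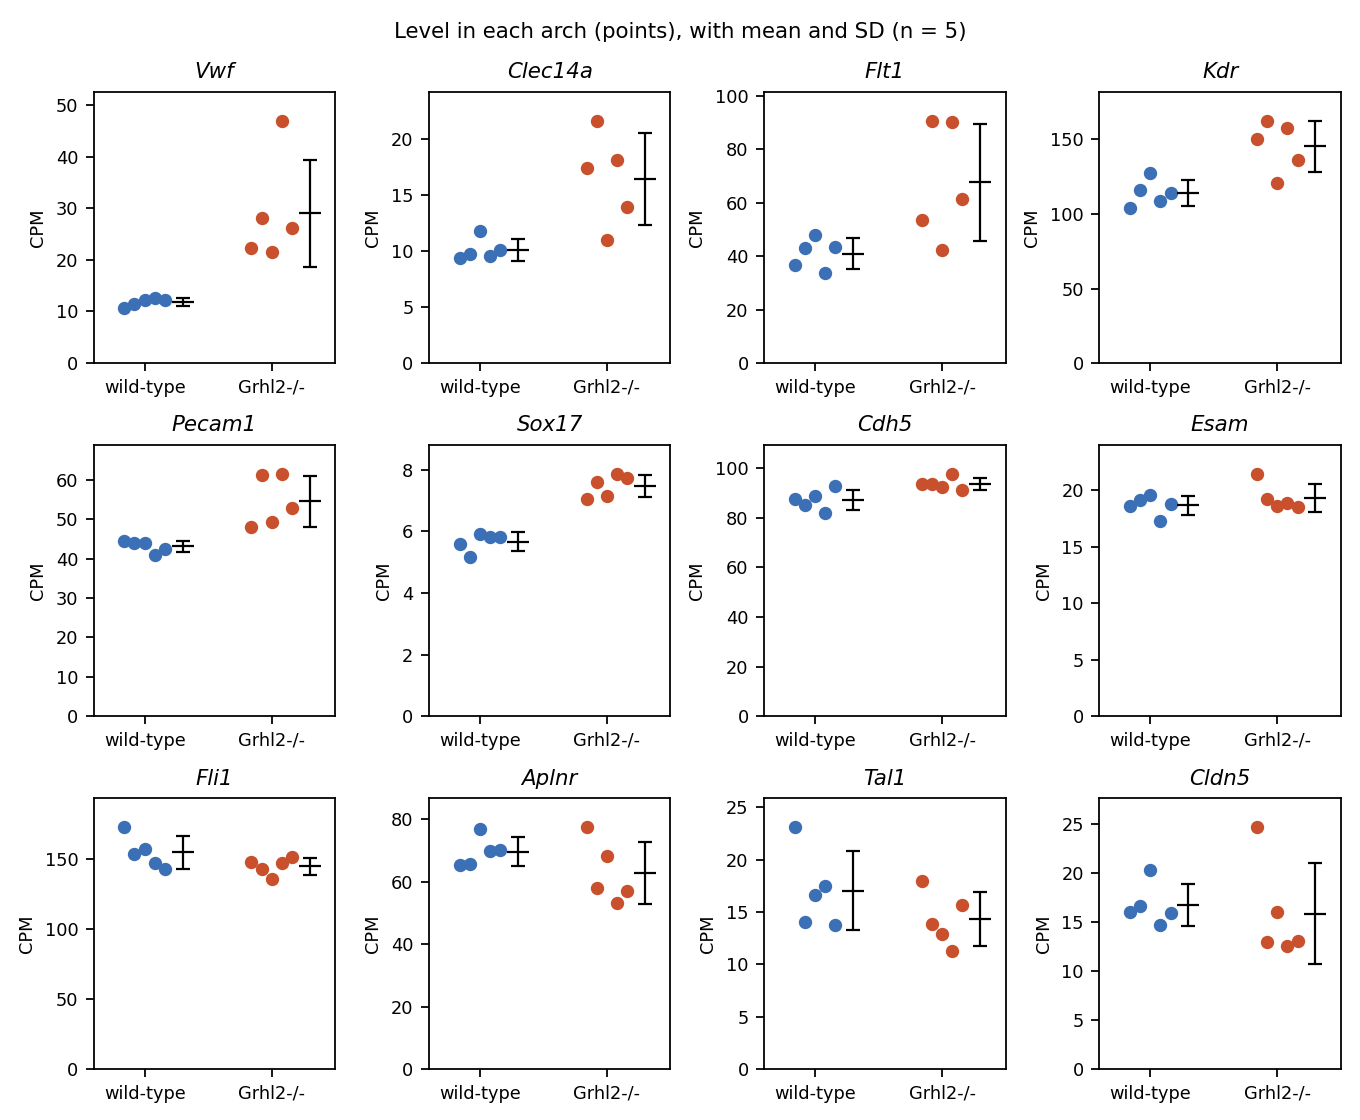
CPM of 12 members in each of the 5 wild-type (blue) and 5 *Grhl2*-/- (red) arches, with mean and SD. *Vwf*, *Pecam1* and *Sox17* do not overlap between genotypes, *Cdh5* and *Esam* are nearly level, and *Fli1*, *Aplnr*, *Tal1* and *Cldn5* have lower means in *Grhl2*-/- PA1.

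Since ETS and SOXF factors are themselves members, promoters were searched for a short ETS word and a short SOX word, and for a Grainyhead-like word because *Grhl2* was deleted. RefSeq promoter sequences (GRCm38.p6, 250 bases before to 50 bases after the start) were matched by symbol for 24 of the 43 genes, as 30 promoters. The ETS word CAGGAAG, on either strand, was in 11 of these 30 promoters (36.7%) and in 4359 of all 32851 promoters (13.3%). It was in *Apln*, *Calcrl*, *Cd34*, *Egfl7*, *Emcn*, *Erg*, *Hhex*, *Notch4*, *Rasip1* and *Robo4*, which cover members on both sides of the median fold change. The SOX word AACAATG was in 2 of the 30 (6.67%) and in 3.78% of all promoters, and the Grainyhead-like word AACCGGTT was in 0 of the 30 and in 0.146% of all. In *Calcrl* the SOX and ETS words lie apart and do not overlap. The promoters of *Calcrl* (higher at FDR below 0.05) and *Robo4* (level) are shown because both hold the ETS word, printed in capitals, and that of *Clec14a*, whose log2 fold change was larger, because it holds none. The windows are chr2:84425217-84425516 on the minus strand for *Calcrl*, chr9:37401722-37402021 on the plus strand for *Robo4* and chr12:58269209-58269508 on the minus strand for *Clec14a*.
Calcrl: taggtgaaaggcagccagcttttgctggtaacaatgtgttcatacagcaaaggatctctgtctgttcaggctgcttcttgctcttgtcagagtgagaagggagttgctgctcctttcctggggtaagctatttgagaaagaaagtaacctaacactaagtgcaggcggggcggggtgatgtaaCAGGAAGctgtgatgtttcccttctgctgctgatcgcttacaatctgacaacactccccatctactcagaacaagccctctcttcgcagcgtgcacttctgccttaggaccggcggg
Robo4: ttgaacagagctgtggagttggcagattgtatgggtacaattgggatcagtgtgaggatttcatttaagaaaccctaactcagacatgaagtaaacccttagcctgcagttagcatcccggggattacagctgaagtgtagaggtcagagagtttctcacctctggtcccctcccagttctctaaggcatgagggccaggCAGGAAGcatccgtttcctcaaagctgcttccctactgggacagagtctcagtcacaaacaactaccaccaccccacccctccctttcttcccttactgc
Clec14a: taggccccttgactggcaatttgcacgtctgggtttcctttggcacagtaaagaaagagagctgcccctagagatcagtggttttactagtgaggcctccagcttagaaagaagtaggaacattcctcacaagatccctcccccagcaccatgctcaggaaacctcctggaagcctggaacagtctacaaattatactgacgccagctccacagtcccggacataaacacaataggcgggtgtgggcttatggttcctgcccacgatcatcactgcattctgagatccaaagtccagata
The capitals begin 67 bases before the start in *Calcrl* and 50 bases before it in *Robo4*. The words are descriptions of the sequence and not measured binding sites. The ETS search used a single exact word, so its absence from the *Clec14a* window does not show that this promoter lacks ETS sites.

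To separate a common shift from changes of single genes, each gene was compared with an endothelial core of *Pecam1*, *Cdh5*, *Tie1*, *Esam* and *Clec14a* in the same arch, by fitting its log2 CPM minus the mean log2 CPM of the core (without the gene itself where it belongs to the core). The mean log2 CPM of the core was 4.96 ± 0.061 in wild-type and 5.21 ± 0.111 in *Grhl2*-/- arches (SD, n = 5), without overlap between 4.87 to 5.03 and 5.05 to 5.33. Relative to the core, *Vwf* was higher by 0.98 on the log2 scale (95% CI 0.56 to 1.40, FDR 0.00259 with limma), the 1 member past FDR 0.01 in that direction (background 0.536%). *Fli1* (-0.34, 95% CI -0.49 to -0.20, FDR 0.00220) and *Aplnr* (-0.41, 95% CI -0.65 to -0.18, FDR 0.00858) were lower, against a background of 30.3% of all genes, since any gene that did not follow the core falls in that direction. At FDR below 0.05, *Clec14a* also exceeded the core (background 1.68%), and *Cd34*, *Cdh5*, *Emcn*, *Esam* and *Tal1* were also below it (background 47.6%). With the core entered as a covariate in place of being subtracted, 0 members passed FDR 0.01 (background 0.0618% higher and 0.22% lower), and the log2 fold changes were 0.83 for *Vwf*, -0.16 for *Fli1* and -0.12 for *Aplnr* (FDR 0.404, 0.571 and 0.846). Of the core genes themselves, *Clec14a* was compared with the other 4, whereas *Cdh5* and *Esam* were compared with a mean that held *Clec14a*.

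The *Aplnr* difference from the core missed FDR 0.01 without WT1-566, WT1-568, WT3-588, WT5-566, WT8-568, KO1-628, KO2-568 or KO3-604, where it was between -0.43 and -0.34, and also with all other members as the core (-0.37, FDR 0.0172), when *Vwf* and *Fli1* passed. Without KO2-566 the count past FDR 0.01 was 8 members in place of 3, with 3 higher and 5 lower than the core, where the shares over all genes were 0.766% and 41.6%. Without both WT1-566 and WT1-568, the log2 differences of *Vwf*, *Fli1* and *Aplnr* from the core were 0.92, -0.29 and -0.46, and none passed FDR 0.01.

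Measured against the members' own median of 0.16, the 95% CI of 31 members included that median. The interval lay above it for 8 members (*Clec14a*, *Flt1*, *Kdr*, *Lmo2*, *Pecam1*, *Sox17*, *Sox18* and *Vwf*) and below it for 4 (*Aplnr*, *Cd34*, *Fli1* and *Tal1*). These intervals are descriptions with no adjustment for their number. *Vwf* on the high side and *Fli1* and *Aplnr* on the low side were the members that lay outside the median by this interval and also passed FDR 0.01 against the core. Most members could not be told apart from the median at this number of embryos, which does not show that they moved alike.

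The *Grhl2*-/- arches differed among themselves. In KO1-588, 40 of the 43 members were above the wild-type mean, with a median deviation of 0.33 on the log2 scale. KO2-566 was nearest to wild-type, with 27 members above the mean and a median deviation of 0.063. KO1-628, KO2-568 and KO3-604 had 32, 34 and 30 members above the mean, with median deviations of 0.22, 0.24 and 0.13. Wild-type arches had from 8 (WT5-566) to 32 members above it (WT3-588, median deviation 0.10). By this count KO1-628, KO2-566 and KO3-604 were within the wild-type range. KO1-588 was the highest of all 10 arches for *Aplnr*, *Cldn5*, *Emcn*, *Esam*, *Tek* and *Tie1*, while KO1-628 and KO2-568 were the highest pair for *Flt1*, *Pecam1*, *Vwf* and *Clec14a*. The summed level of all members was 1092 to 1245 CPM in wild-type and 1185 to 1399 CPM in *Grhl2*-/- arches, overlapping through KO2-566.

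**Figure D4:**
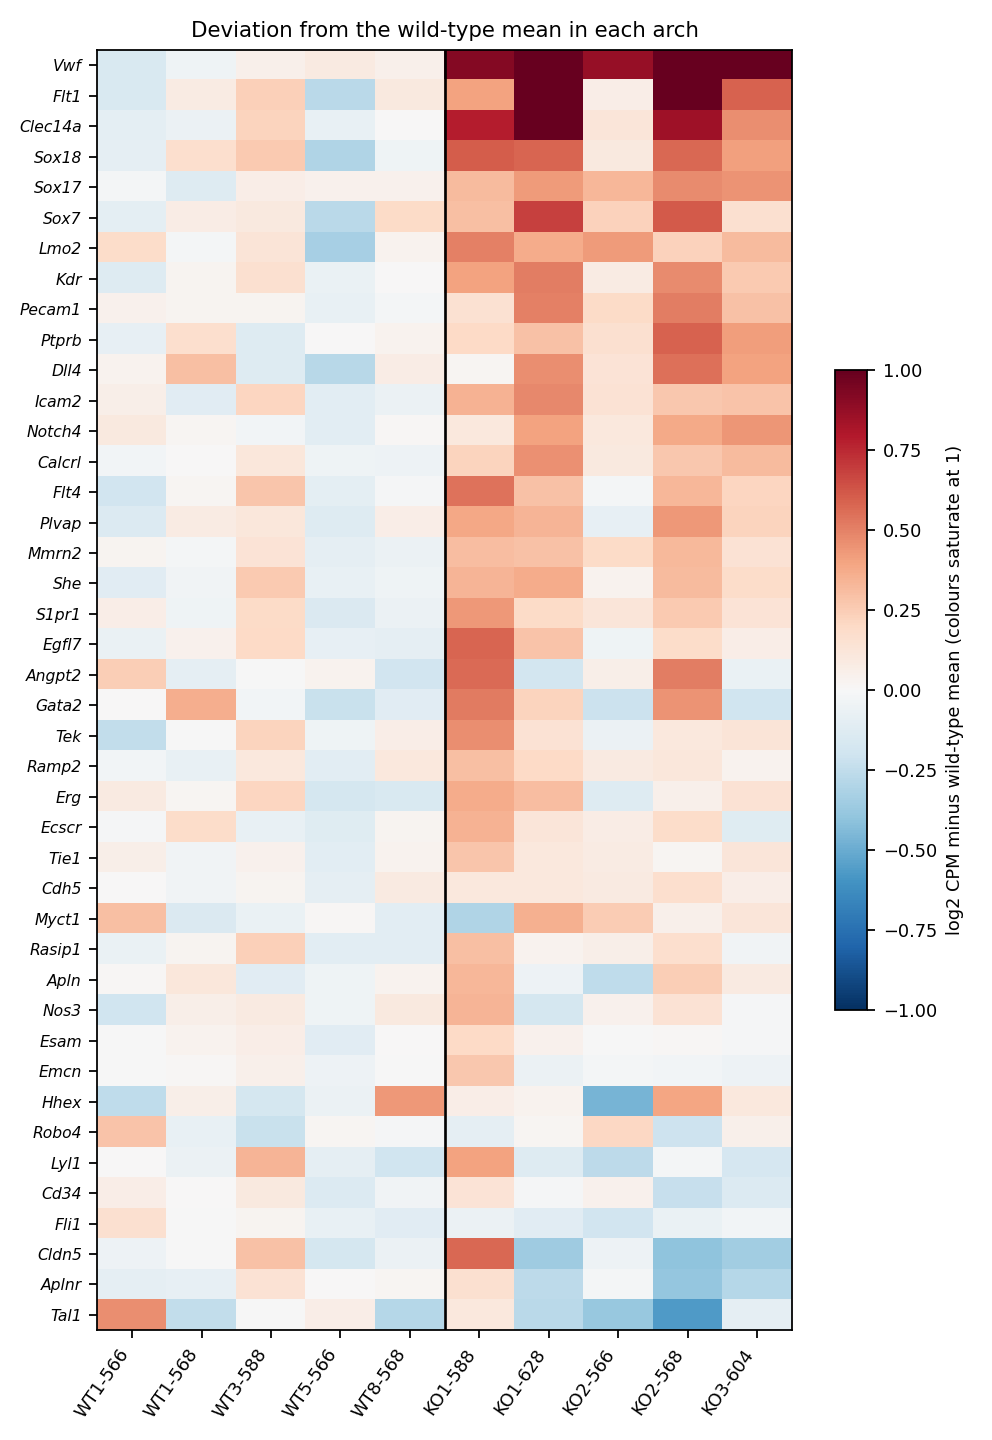
Log2 CPM of 42 members (without *Etv2*, which had 3 to 12 reads) minus the wild-type mean of the gene, in each arch, ordered by log2 fold change. The KO1-588 column is red for nearly all genes, the KO2-566 column is pale, and in KO1-628 and KO2-568 the rows at the top are red and those at the bottom blue.

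Further vascular genes were read from lists kept apart from the members. Of 20 other endothelial genes tested, 16 had a positive log2 fold change with a median of 0.21, and 3 rose at FDR below 0.01 (background 0.879%, as for the lists that follow). These were *Adgrl4*, an adhesion GPCR of endothelium (7.12 ± 0.651 to 11.4 ± 1.95 CPM, log2 fold change 0.66, 95% CI 0.40 to 0.92, FDR 0.00912), *Fgd5*, an endothelial activator of CDC42 (22.3 ± 1.63 to 28.5 ± 1.24 CPM, log2 fold change 0.35, 95% CI 0.22 to 0.47, FDR 0.00586), and *Heg1*, a junctional receptor of heart and vessels (72.5 ± 3.79 to 89.3 ± 5.49 CPM, log2 fold change 0.30, 95% CI 0.18 to 0.41, FDR 0.00740). None of the 3 overlapped between genotypes. The first genes of that list, the BMP and TGF-β receptors *Eng* and *Acvrl1*, had log2 fold changes of 0.51 and 0.10 (FDR 0.0463 and 0.412).

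Of 9 arterial genes, 8 had a positive log2 fold change and 2 rose, the Notch ligand *Jag1* (log2 fold change 0.47, 95% CI 0.28 to 0.66, FDR 0.00986) and the Notch target *Hey1* (log2 fold change 0.62, 95% CI 0.41 to 0.84, FDR 0.00354). Both are also expressed outside vessels. The gap junction genes of arteries, *Gja4* and *Gja5*, had log2 fold changes of 0.25 and 0.36 (FDR 0.265 and 0.127). Of 5 venous and lymphatic genes, *Nr2f2*, a venous determinant that is also abundant in mesenchyme, rose (log2 fold change 0.31, 95% CI 0.19 to 0.44, FDR 0.00917), while *Ephb4*, the venous ephrin receptor, had a log2 fold change of -0.06 (FDR 0.391). Of 12 endocardial and BMP response genes, 5 rose, namely *Bmp2*, *Has2*, *Npr3*, *Tgfbr3* and *Tmem100*. The paper had already reported *Has2*, *Tmem100*, *Tgfbr3*, *Bmp2* and *Hey1* as upregulated in these same RNA-seq data. The lists were chosen with earlier results known, so the counts of rises in the lists that hold these genes are not independent of that report. *Tmem100*, an endothelial target of BMP signalling, went from 3.22 ± 0.266 to 5.26 ± 0.763 CPM (log2 fold change 0.70, 95% CI 0.44 to 0.96, FDR 0.00604), whereas *Nfatc1* had a log2 fold change of -0.26 (FDR 0.0965).

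Several of these calls rested on all 10 arches. WT1-566 and WT1-568, which stood apart in sensory neuron transcripts, were the lowest wild-type arches for *Jag1* (51.7 and 64.8 CPM against 65.5 to 75.3) and *Hey1* (both 22.3 CPM against 23.1 to 28.4). They were also the lowest for *Hey2* (4.04 and 3.81 CPM against 8.61 to 9.45) and *Cxcr4* (10.1 and 8.12 CPM against 12.6 to 14.5), arterial genes named after their values were seen. Without both arches, all 9 arterial genes had a positive log2 fold change (median 0.34), but 0 passed FDR 0.01, with *Jag1* at 0.34 (FDR 0.0288), *Hey1* at 0.53 (FDR 0.0455) and *Hey2* at 0.32 (FDR 0.538). In that fit *Adgrl4*, *Fgd5*, *Heg1* and *Nr2f2* had log2 fold changes of 0.63, 0.28, 0.32 and 0.31 (FDR 0.0829, 0.0584, 0.0314 and 0.0629), and of the endocardial and BMP response genes *Bmp2* and *Has2* passed FDR 0.01. When 1 arch was left out, between 7 and 16 of the 17 calls in the lists outside the members passed FDR 0.01, and all 17 passed FDR 0.05. The fewest remained without WT1-568 or WT8-568, and the fit without KO1-588 lost only *Jag1*. With the label number as a replicate block, 7 of the 17 passed FDR 0.01 and 16 passed FDR 0.05. *Adgrl4*, *Fgd5*, *Heg1*, *Jag1*, *Hey1* and *Nr2f2* were among those that missed FDR 0.01 in the block fit. *Bmp2*, *Has2*, *Tagln*, *Cdh1*, *Cldn6*, *Epcam* and the lower call of *Figf* passed in each of these fits, and the part of the neuron transcripts was not tested.

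Markers of other cells were compared in the same arches. All 8 primitive erythroid genes had a negative log2 fold change (median -0.35), although 0 were called at FDR below 0.01, also with edgeR and DESeq2. At an unadjusted p under 0.05, 6 of the 8 were lower (background 14.3%). Their summed level was 3640 to 6184 CPM in wild-type and 2864 to 3876 CPM in *Grhl2*-/- arches, and only KO1-588 and KO3-604 were within the wild-type range. *Hbb-bh1* and *Hba-x*, embryonic globins, had log2 fold changes of -0.33 and -0.35 (FDR 0.131 and 0.140). The endothelial members and the erythroid transcripts thus had medians of opposite sign.

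Of 9 mural cell genes, *Tagln*, a contractile protein of smooth muscle that other cells also express, rose (3.09 ± 0.883 to 17.6 ± 4.12 CPM, log2 fold change 2.50, 95% CI 1.97 to 3.04, FDR 1.48e-04), and 7 of the 9 had a positive log2 fold change (median 0.36). At FDR below 0.05, 5 were higher (background 3.84%), namely *Tagln* and, named after their values were seen, *Abcc9*, *Acta2*, *Cnn1* and *Notch3*, and edgeR and DESeq2 called 3 and 5 at FDR below 0.01. Genes known from pericytes did not share a direction, with log2 fold changes of -0.33 for *Rgs5* and -0.08 for *Pdgfrb* (FDR 0.144 and 0.366) but 0.39 for *Abcc9*, 0.30 for *Notch3* and, also named after its value was seen, 0.26 for *Cspg4* (FDR 0.0390, 0.0240 and 0.104). No macrophage gene was called (0 of 8, 0 at an unadjusted p under 0.05, 0 with edgeR or DESeq2), and 6 of the 8 had a positive log2 fold change (median 0.15), from -0.15 for *Adgre1* to 0.84 for *Mrc1* (FDR 0.205), both named after their values were seen. Their summed level was 27.7 to 40.7 CPM in wild-type and 23.0 to 76.1 CPM in *Grhl2*-/- arches, and KO2-568, the arch with the most *Vwf*, was the highest. Without KO2-568, 4 of the 8 macrophage genes had a positive log2 fold change (median -0.02), and with the label number as a replicate block all 8 did (median 0.61). In the epithelium list, *Cdh1* and *Epcam* fell by 2.47 and 2.51 on the log2 scale, *Cldn6* also fell, the 3 genes that were not called had log2 fold changes of -0.40 to -0.07, and the summed level was 276 to 379 CPM in wild-type and 155 to 231 CPM in *Grhl2*-/- arches. In the arch mesenchyme list *Msx1* fell (log2 fold change -0.66, 95% CI -0.90 to -0.41, FDR 0.00595), and 5 of the 6 genes had a negative log2 fold change (median -0.20), including *Prrx1* at -0.25 and *Pdgfra* at -0.05. At FDR below 0.05, 2 were lower (background 3.87%), the other being *Twist1*, named after its value was seen. At FDR below 0.01, edgeR and DESeq2 called 1 and 2 lower, where DESeq2 called 553 of all 14561 genes lower. The share of all genes that edgeR called lower is not given here. The part of these other cell types in the endothelial differences was not tested.

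**Figure D5:**
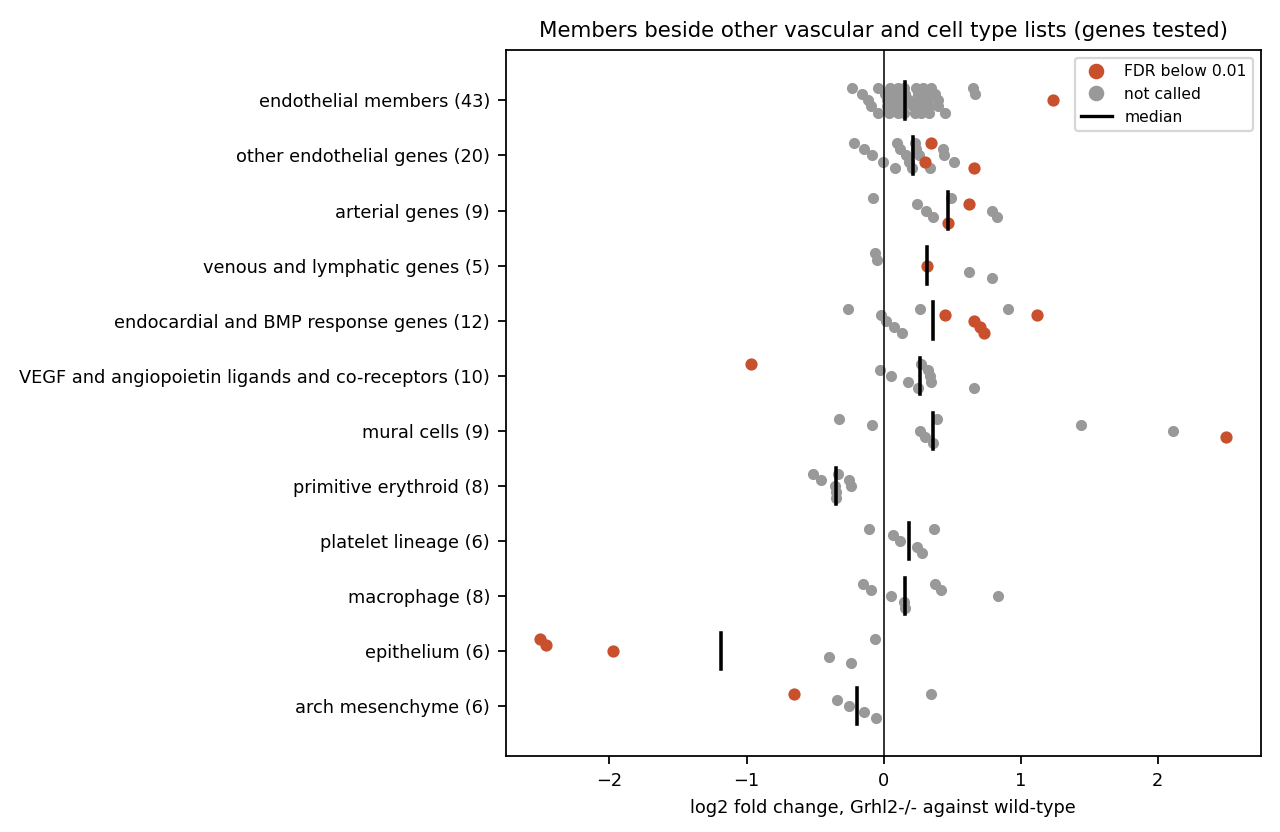
Log2 fold changes of the tested genes of the 43 members and of 11 other lists, with the number of genes in parentheses, a black bar at the median and red points at FDR below 0.01 (limma-voom). The endothelial and arterial lists lie mostly right of 0, and all 8 primitive erythroid genes lie left of 0.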

How the data were processed

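RNA from PA1 of 5 wild-type and 5 *Grhl2*-/- E10.5 embryos was sequenced as single-end reads of 50 bp. The authors used STAR with the GRCm38 genome for alignment and featureCounts for the read counts of each gene, and deposited these raw counts for 22114 protein-coding genes. Tool versions in the submitters' processing notes are edgeR 3.18.1 and limma 3.32.7, and the strand setting of the counting is given only by the word reverse in the name of the count table. 8 members have exons that overlap a gene on the opposite strand and 3 (*Egfl7*, *Ramp2*, *Rasip1*) on the same strand. A second table holds the authors' own comparison (fold changes and adjusted p-values) and was not used.

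Genes reaching 10 counts in 1 or more arches were tested (14561). Counts were TMM-normalized and tested with limma-voom (limma 3.58.1, edgeR 4.0.16, R 4.3.3), with genotype as the only term, Benjamini-Hochberg adjustment over all genes tested and calls at FDR below 0.01. Differences from the endothelial core were fitted with limma and voom weights. No test was run over the list as a whole. Exon lengths and coordinates are from GENCODE mouse release 21, in which all 43 members were matched by identifier. Members, lists and tests were chosen with earlier results of these data known. Values in every arch are given for members with FDR below 0.05, the 5 core genes and members past FDR 0.01 relative to the core, and *Cldn5*, *Flt1*, *Notch4*, *Tal1* and *Vegfa* were added after their values were seen. The alternatives comprised DESeq2 1.42.0, the quasi-likelihood test of edgeR, other scalings and filters, quality weights, the label number as a replicate block, an FDR of 0.05, leaving out each arch and, chosen after seeing the data, leaving out both WT1-566 and WT1-568 and repeating the other lists without single arches. No arches of 1 genotype agreed within sampling noise. On simulated counts of 14374 genes with 200 changed 2-fold, limma-voom and edgeR each recovered 80.5% and made 2 false calls, and DESeq2 recovered 87% and made 12. The core comparison recovered 81.5% of 200 genes with 0 false calls among members raised alike (14358 genes). The simulated counts were drawn independently for each gene, whereas the members varied together within genotypes. Recovery was measured for 2-fold changes only, whereas 34 members had log2 fold changes between 0 and 0.5. These rates therefore do not describe the tests on the members themselves.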

Additional observations from a re-analysis of the deposited data

Results flagged for a closer look

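In each genotype the highest and the lowest arch of every member and summary were compared with the other 4 by Dixon's ratio of gap to range (critical value 0.71 for 5 samples). Of 92 groups checked, 3 exceeded it, and 4.6 would be expected at 1 in 20. *Emcn* was at a log2 CPM of 5.24 in KO1-588, against 4.95 in the next arch (ratio 0.869). *Esam* was at 4.42 in KO1-588, against 4.27 in the next arch (ratio 0.752). *She* was at 4.44 in WT3-588, against 4.15 in the next arch (ratio 0.785). KO1-588 and WT3-588 carry the same number in their labels, and the cause of these values was not tested.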

How the results depend on the processing

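Alternatives were counted for single members and for the differences of *Vwf*, *Fli1* and *Aplnr* from the core. Of these, 838 kept direction and side of FDR 0.01, 14 passed it newly, 25 lost it and 26 turned sign. At a threshold of FDR 0.05 a further 8 values were past it and 35 were as before. Since *Vwf* was the only member called in the main fit, most of the 838 come from members that had no call to lose. *Vwf* itself passed FDR 0.01 in 11 of 20 alternatives. The genes lower and higher over the whole table (158 and 128) were 553 and 520 with DESeq2, 69 and 60 with the replicate block, 90 and 19 without both WT1-566 and WT1-568, and 564 and 559 at FDR 0.05, and 204 were higher with quality weights. Leaving out 1 arch gave 110 to 249 lower and 42 to 143 higher. The members called higher (1) were 9 with DESeq2, 4 with quality weights, 9 at FDR 0.05, 0 with the replicate block, 0 without both arches and 0 to 4 without 1 arch. The members' median was 0.10 to 0.25 without 1 arch. Members past FDR 0.01 relative to the core (3) were 0 with the core as a covariate, 0 without both arches, 9 at FDR 0.05 and 2 to 8 without 1 arch. The cause of these shifts was not tested.

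Log2 fold changes near 0 turned sign. That of *Robo4* was -0.0067 with edgeR, -0.0076 with DESeq2 and -0.0091 with quality weights, and that of *Emcn* -0.0032 with quality weights. With the replicate block, those of *Cldn5* and *Etv2* were 0.0019 and -0.25, and without both arches those of *Etv2* and *Hhex* were -0.00099 and -0.044. Without 1 arch the ranges were -0.070 to 0.15 for *Hhex*, -0.055 to 0.069 for *Robo4*, -0.16 to 0.049 for *Lyl1*, -0.21 to 0.29 for *Etv2*, -0.046 to 0.040 for *Emcn*, -0.0028 to 0.16 for *Apln*, -0.0093 to 0.12 for *Nos3* and -0.092 to 0.0092 for *Cd34*. Label numbers did not pair the arches over all genes (correlations of -0.237 to 0.42 in 5 same-number pairs, 3 over 0.1, although 0.354 to 0.591 over the members alone), and with the number as a replicate block *Vwf* had a log2 fold change of 1.35 and an FDR of 0.0177, the difference of *Aplnr* from the core was -0.34 (FDR 0.0250, 2 members past FDR 0.01), and 7 of 17 calls in the other lists passed FDR 0.01, without *Adgrl4*, *Fgd5*, *Heg1*, *Hey1*, *Jag1*, *Msx1*, *Npr3*, *Nr2f2*, *Tgfbr3* and *Tmem100* (FDR 0.016 to 0.0744). Members with few reads (*Etv2*, *Angpt2*, *Hhex*) limit what depth can resolve.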

Other observations

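The members varied together within genotypes. Each member's deviation from its genotype mean was correlated, over the 10 arches, with the mean deviation of the other members, and the correlation had a median of 0.54 over members, exceeded 0.5 in 23 of 43 and ranged from -0.67 (*Robo4*) to 0.92, whereas the median over all other genes tested was -0.0028. These are descriptions across genes of the same 10 libraries, which share depth and dissection.

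Across the 43 members, deviations were correlated at 0.354 to 0.591 in the 5 pairs of arches that share a label number across genotypes, and at -0.542 to 0.439 in the 20 pairs that do not. What the number stands for is not given in the labels. In the muscle progenitor list, 0 of 6 genes were called with limma-voom, and edgeR and DESeq2 also called 0. At an unadjusted p under 0.05, 1 of the 6 was lower (background 14.3%). Among sensory neuron and ganglion glia markers, 0 of 8 and 0 of 5 were called, with 0 at an unadjusted p under 0.05 and 0 with edgeR or DESeq2. Their medians of 1.86 and 0.69 stand beside the low levels in WT1-566 and WT1-568. Without both of these arches the medians were -0.19 and -0.01, with 2 of 8 and 2 of 5 genes positive.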
